A study of Mus musculus with 30 samples.

Results

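The Gimap genes (GTPases of the immunity-associated protein family) were followed as 8 genes, Gimap1, Gimap3, Gimap4, Gimap5, Gimap6, Gimap7, Gimap8 and Gimap9, among the 23013 gene rows of the deposited table. They were taken by name, through their Entrez gene numbers, and all 8 were present in the table. The samples were 30 single-cell libraries made with Seq-Well, a method in which cells and barcoded beads share small wells, from 8 organs of 8 male DBA1/J mice that were 8 to 12 weeks old by the study's methods. The 4 mice with collagen-induced arthritis (CIA) had received 100 µg of bovine collagen II with complete Freund's adjuvant and a boost with incomplete adjuvant on day 20, and had arthritis scores of 8 (S1 and S2), 3 to 4 (S6) and 3 (S7). The controls H3, H4, H6 and H7, called healthy, were given phosphate-buffered saline and scored 0, so that collagen, adjuvant and arthritis differ together between the states. Blood and lymph node were each sampled from 4 healthy and 3 CIA mice. Joint was sampled from H3 and S1, and lung, muscle, skin, spleen and thymus from H6 and S1, so these organs have no replicates within a state.

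Gimap proteins are GTP-binding proteins of lymphocytes, many of them anchored in internal membranes. They are best known for the survival of mature T and B cells: mice that lack Gimap5 lose peripheral T cells, and mice that lack Gimap1 in lymphocytes lose mature T and B cells. Gimap3 is a close relative of Gimap5, Gimap4 has been tied to the timing of T cell death, Gimap6 to autophagy, and Gimap7 to stimulation of GTP hydrolysis by other members. Gimap8 is the longest member and carries several GTP-binding domains.

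The 8 genes lie side by side on chromosome 6 (build GRCm38.p6, RefSeq coordinates), from 48647186 to 48770851, a stretch of 123.7 kb. In order of position they are Gimap8 (Entrez 243374, 48647186 to 48660875, plus strand), Gimap9 (317758, 48676121 to 48679116, plus), Gimap4 (107526, 48684578 to 48692062, plus), Gimap6 (231931, 48701583 to 48708244, minus), Gimap7 (231932, 48718621 to 48724636, plus), Gimap1 (16205, 48739047 to 48743795, plus), Gimap5 (317757, 48746197 to 48754200, plus) and Gimap3 (83408, 48764464 to 48770851, minus). In the GENCODE M21 annotation the readthrough gene Gm28053 overlaps Gimap7, Gimap1 and Gimap5 on the same strand, and the antisense gene Gimap1os overlaps Gimap1. Whether reads were split between these genes was not tested. Over the last 500 bases of their transcripts, where a 3′ method reads, 6.01% of the 50-base words of Gimap1 and 3.53% of those of Gimap3 were also found in transcripts of other genes, and 0 of those of the other members were. Reads of Gimap3 and Gimap5, although the proteins are alike, shared 0 such words in this stretch.

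The 250 bases before the start are shown for Gimap4, the member with the largest fitted difference between CIA and healthy blood, and for Gimap7, the member with the largest fitted difference between T-side and B-side lymph node barcodes. They are RefSeq reference sequence (GRCm38.p6), which was not made from DBA1/J mice, read 5′ to 3′ on the plus strand at chr6:48684328-48684577 and chr6:48718371-48718620. Capitals mark GGAAG, the core of ETS factor motifs, and TGTGGT, the core of RUNX motifs, on either strand, where a match on the other strand reads CTTCC or ACCACA.
Gimap4: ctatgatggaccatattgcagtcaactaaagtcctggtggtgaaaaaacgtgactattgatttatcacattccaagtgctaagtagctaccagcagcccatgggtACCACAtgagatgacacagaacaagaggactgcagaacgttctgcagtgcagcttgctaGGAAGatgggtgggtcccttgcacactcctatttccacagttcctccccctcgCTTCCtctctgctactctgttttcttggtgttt
Gimap7: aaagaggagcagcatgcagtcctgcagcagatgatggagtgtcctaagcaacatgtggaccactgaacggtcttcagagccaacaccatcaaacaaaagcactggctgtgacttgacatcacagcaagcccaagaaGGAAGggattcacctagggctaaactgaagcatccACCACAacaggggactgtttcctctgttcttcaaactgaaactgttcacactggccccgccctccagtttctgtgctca
The Gimap4 window held 2 ETS matches and 1 RUNX match, and the Gimap7 window 1 of each, with no marked match overlapping another. Over the 9 windows of the 8 genes (Gimap8 has 2 starts), GGAAG was in 8, TGTGGT in 3 (Gimap1, Gimap4 and Gimap7) and CTTTGA, the core of TCF and LEF motifs, in 0. Of all 32851 windows of this length, 64.1% held GGAAG, 14.1% TGTGGT and 13.8% CTTTGA. These are matches of letters and not binding sites.

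Values are units of the deposited signal, summed over the barcodes of a mouse and organ and given per 1000000 units of that sum (UPM). The authors had smoothed each library over nearest neighbours, so 1 molecule entered the values of several barcodes, units are not counts, and no counting interval was derived from them. The libraries held 27 to 934 barcodes and 217494 to 7886790 units, and 0 profiles were shared between libraries (13 of 8255 barcode sequences occurred in more than 1 library). The rarest genes were largely lost from 19 libraries, in which 95% of the genes listed above 0 had at least 23 to 36 units, against at least 6 to 12 units in the other 11. A gene at 0 is therefore reported as listed at 0 and not as absent. Library titles carried 2CIA (17 libraries) or CIA (13), in mice of both states, which is called the suffix here. Another mark, a closing 2 in brackets, stood on the titles of all lung, muscle, skin and spleen libraries and of the 2CIA joint libraries, and column names also bore a sample number. The labels give the meaning of none of these, any of which may stand for a batch. All 8 T cell and all 8 B cell markers were above 0 in both states of the lymph node, and all 6 thymocyte markers in both thymus libraries. In blood, all 8 B cell markers were above 0 in both states, but all 8 T cell markers were listed at 0 in the CIA mice S6 and S7, and Cd5 in S2 too. Blood was prepared on a density gradient with red cell lysis by the study's methods, yet the 6 erythroid markers made up 3.58% to 51.6% of a mouse's blood units.

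By median, summed Gimap levels were highest in lymph node, spleen and blood. The summed level of the 8 genes was 653 to 1254 UPM over the 7 mice in lymph node (median 847), 157.5 to 1404 UPM over the 7 mice in blood (median 435), and 528 and 678 UPM in the 2 spleen libraries. It was 159 and 226 UPM in thymus, 54.4 and 403.5 UPM in muscle, 54.9 and 75.4 UPM in joint, 0 and 100.5 UPM in lung, and 11.98 and 13.1 UPM in skin. Lymph node, spleen and blood lay next to each other in this order of medians (847, 603 and 435 UPM), and blood's range covered all of the lymph node values, so these 3 do not separate beyond the spread between mice. Both thymus libraries lay below every lymph node mouse. The 2 muscle libraries came from different states and suffixes.

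**Figure D1:**
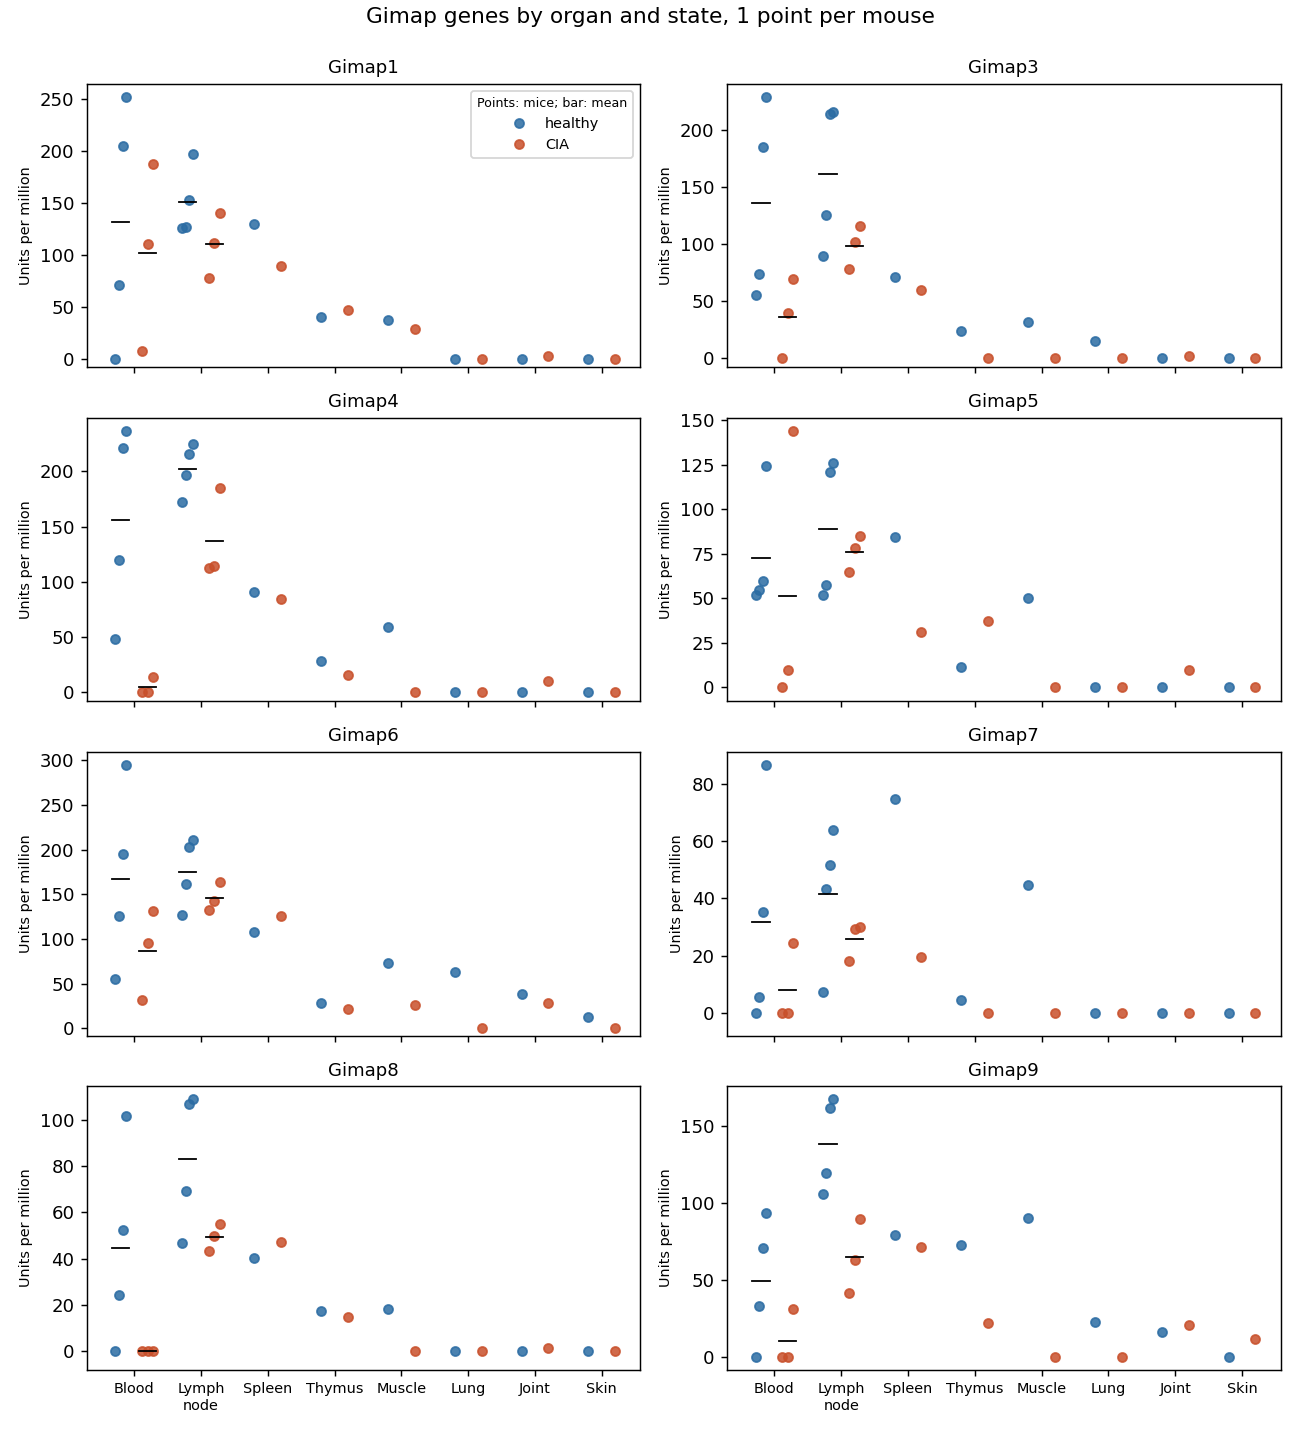
Level of each Gimap gene (y axis, UPM) by organ (x axis), with 1 point per mouse, healthy in blue and CIA in orange, and a bar at the mean where a state has more than 1 mouse. For all 8 genes the lymph node points are above 0 in all 7 mice, and the skin and CIA lung points lie at or near 0.

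The members differed in how widely they were found. Gimap6 was above 0 in 27 of 30 libraries, the most of any member, and Gimap7 in 16, the fewest. The others lay between, from Gimap8 in 18 libraries to Gimap9 in 23. All 8 members were above 0 in 15 libraries and all 8 were listed at 0 in 2, the CIA lung and the smaller joint library of S1 (70 barcodes). Gimap6 and Gimap9 were the members above 0 in healthy joint, at 38.1 and 16.8 UPM. In healthy lung, Gimap3, Gimap6 and Gimap9 were above 0, at 14.7, 62.8 and 23.0 UPM.

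Across organs the members varied together. Over the 26 samples of a mouse and organ, Pearson's r of log2(UPM + 10) between members was 0.589 to 0.897 (median 0.776 over 28 pairs), and over the 7 lymph node mice alone it was 0.076 to 0.915 (median 0.546). These points share organs and libraries and differ in depth, so r is given as a description. The genes outside the family whose pattern was most like the summed level of the 8 genes, of 5410 genes that averaged 25 UPM or more, were 9930111J21Rik2 (r = 0.897), Ltb (0.897), Ptpn6 (0.887), Ptprcap (0.886) and Iglc2 (0.871). Ltb encodes lymphotoxin beta, Ptpn6 the phosphatase SHP-1, Ptprcap a protein bound to CD45, and Iglc2 an antibody light chain constant region. The least alike were Jag1 (r = -0.884), a Notch ligand, Tubb6 (-0.882), a beta tubulin, and Slc39a1 (-0.880), a zinc transporter.

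Pooled over all organs, the summed level went with lymphocyte markers, and thymus stood apart. Over the 26 samples its r with the summed B cell markers was 0.857 and with the summed T cell markers 0.668, and without the 2 thymus samples these were 0.928 and 0.758. With neutrophil markers it was -0.088. Organs are pooled in these values, so they do not describe the mice within an organ. The thymus libraries had the highest T cell marker sums of all, 4255 UPM in H6 and 3396 UPM in S1, against 1098 to 2346 UPM in the lymph node libraries. Their Gimap sums were nevertheless 226 and 159 UPM.

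**Figure D2:**
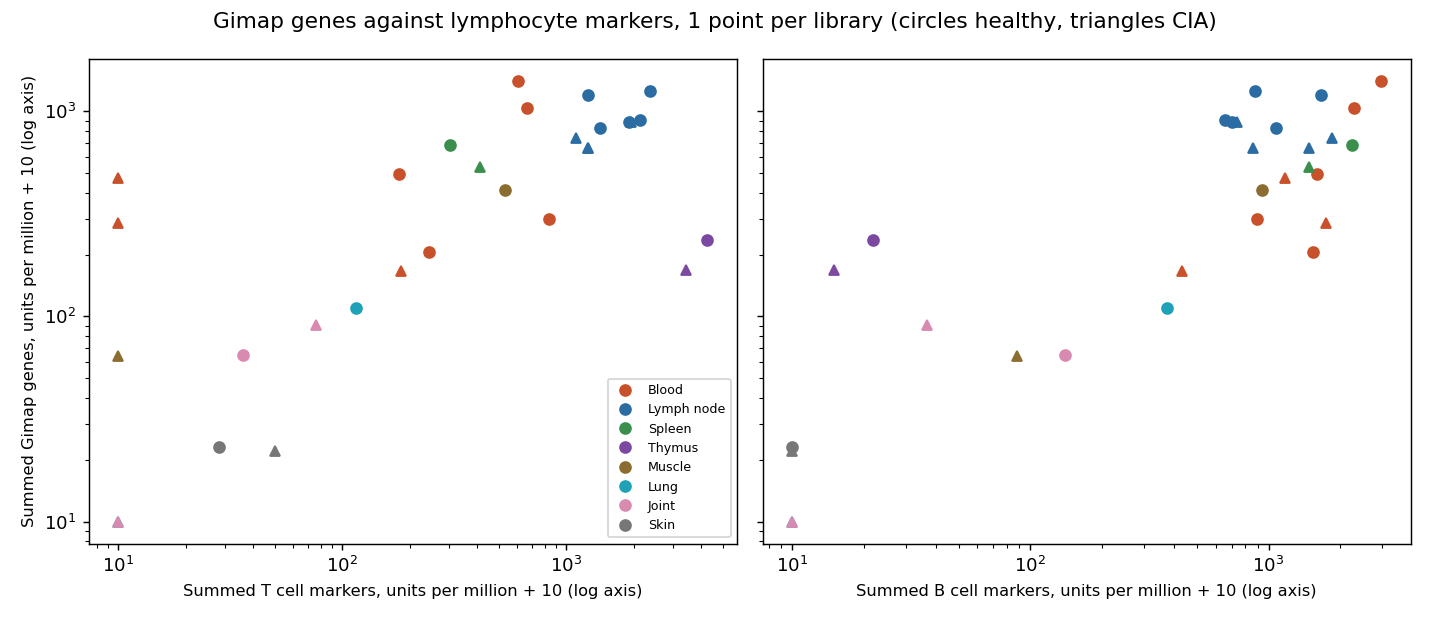
Summed level of the 8 Gimap genes (y axis) against the summed T cell markers (left) and B cell markers (right), in UPM plus 10 on log axes, with 1 point per library, circles for healthy and triangles for CIA, coloured by organ. The 2 thymus points lie at the far right of the T cell panel (4255 and 3396 UPM of markers) with Gimap sums of 226 and 159 UPM, below all lymph node points; the CIA lung library and 1 CIA joint library coincide at the lower left corner, at 0 on each axis before the 10 was added.

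The thymus is where T cells mature, and lymph nodes hold the recirculating naive cells that have left it. Mice H6 and S1 gave both organs, with the same title suffix in both organs of a mouse. In H6, Gimap4 was at 28.5 UPM in thymus and 225 UPM in lymph node, and in S1 at 15.7 and 114 UPM. Gimap3 was at 23.2 and 214 UPM in H6, and was listed at 0 in the thymus of S1 against 101.5 UPM in its lymph node. Gimap6 was at 28.8 and 210.4 UPM in H6 and at 21.9 and 132 UPM in S1. For these 3 genes the thymus was lower in both mice by over 2 on the log2(UPM + 10) scale.

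In S1 the gap was narrower for Gimap1 and Gimap5, and Gimap9 overlapped. Gimap1 was at 39.8 UPM in thymus and 153 UPM in lymph node in H6, and at 46.7 and 78.1 UPM in S1. Gimap5 was at 11.3 and 126 UPM in H6 and at 37.4 and 85.1 UPM in S1. At 72.9 UPM of Gimap9, the thymus of H6 was above the lymph nodes of S1 (63.0 UPM) and S2 (41.7 UPM). Altogether 7 of the 8 members had both thymus libraries below all 7 lymph node mice, against 20.7% of 5443 genes that averaged 25 UPM or more in these samples. The median log2 ratio of thymus to lymph node over the 8 members was -2.31 in H6 and -1.63 in S1, against 0.10 and 0.08 over all those genes. Gimap3, Gimap4, Gimap5, Gimap7 and Gimap8 averaged 2.16 to 24.3 UPM in thymus and met the minimum through the lymph nodes alone, so a lower level in thymus was in part fixed by that minimum, and the count and medians are a description. With 2 thymus libraries these are values without a test, and fewer cells with a transcript and less of it per cell cannot be told apart in summed libraries.

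Other genes of resting and recirculating lymphocytes and of the T cell receptor were set beside the family in the same libraries. Of 18 genes listed for lymphocyte quiescence, recirculation and survival, 9 lay below every lymph node mouse in both thymus libraries and 3 above. S1pr1, the receptor with which lymphocytes leave lymphoid organs, was at 6.72 UPM in the thymus of H6 and listed at 0 in that of S1, against 233 and 198 UPM in their lymph nodes. Ccr7, the receptor for entry into lymph nodes, was at 8.75 and 14.7 UPM in thymus and at 260.0 and 161.5 UPM in lymph node. The 3 that were higher in thymus were Tcf7, Satb1 and Btg2, chosen for naming after their values were seen, and Tcf7, a transcription factor of developing T cells, was at 1043 and 707 UPM in thymus against 165 to 380 UPM in lymph node. Of 14 genes of the T cell receptor complex and its signalling, 1 (Cd2) lay below and 7 above, where 26.0% of the 5443 genes lay above.

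The summed Gimap level per unit of T cell marker was thus 0.0531 in the thymus of H6 and 0.0468 in that of S1, and 0.462 to 0.954 over the 7 lymph node mice. B cell markers, at 11.8 and 4.95 UPM in thymus with 7 of the 8 genes listed at 0, were at 690 to 1653 UPM in lymph node, and their part in the difference was not tested.

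To ask whether lymph node Gimap levels sat with T or with B cell transcripts, barcodes were split by their own markers. Of 2505 lymph node barcodes, 1066 had more than 2 times as much T as B marker signal (T-side), 437 more than 2 times as much B as T (B-side) and 1002 lay between. The sides are ranges of a marker score and not cell types: the T-side barcodes still had a median of 416 UPM of B cell markers, and the B-side barcodes 617 UPM of T cell markers. Each of the 7 mice gave 51 to 279 T-side and 16 to 167 B-side barcodes, which were summed per mouse.

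The family as a whole was at like levels on both sides. Its sum was 646 to 1240 UPM (median 863) on the T-side and 522 to 1461 UPM (median 880) on the B-side, and was higher on the T-side in 3 of 7 mice. Gimap7 was the member with the widest gap on the fitted log2 scale: it was at 58.0 UPM on the T-side and listed at 0 on the B-side in H3, at 6.97 UPM and 0 in H4, at 50.4 and 49.4 UPM in H6, at 79.2 and 96.9 UPM in H7, at 39.1 and 3.88 UPM in S1, at 18.5 UPM and 0 in S2, and at 34.8 and 12.1 UPM in S7. It was thus higher on the T-side in 6 of 7 mice, with H7 the exception. Gimap1 was higher on the B-side in 6 of 7 mice, at a median of 247 UPM against 136 UPM, with H3 the exception at 53.3 UPM on the B-side and 164 UPM on the T-side. Gimap8 was also higher on the B-side in 6 of 7 mice, at 55.7 against 38.6 UPM, with H6 the exception at 16.4 UPM on the B-side and 107 UPM on the T-side.

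None of these differences passed the test. With the mouse as a block, limma called 0 of 8 members at a Benjamini-Hochberg adjusted p under 0.05, against 416 of 5206 genes or 7.99%, and 1 member (Gimap7) had an unadjusted p under 0.05. On the log2 scale Gimap7 was higher by 1.17 ± 0.52 (SE) on the T-side (limma, adjusted p = 0.156), Gimap3 by 0.61 ± 0.35, Gimap9 by 0.61 ± 0.41, Gimap4 by 0.36 ± 0.32 and Gimap5 by 0.13 ± 0.40. Gimap1 differed by -0.31 ± 0.34, Gimap6 by -0.23 ± 0.31 and Gimap8 by -0.15 ± 0.48. The median of the members was 0.24, and that of all genes tested 0.17. The 95% confidence intervals ran from 0.14 to 2.19 for Gimap7 and from -0.97 to 0.35 for Gimap1, so that for Gimap7 a T-side level 2-fold higher than the B-side level lay within the interval.

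**Figure D3:**
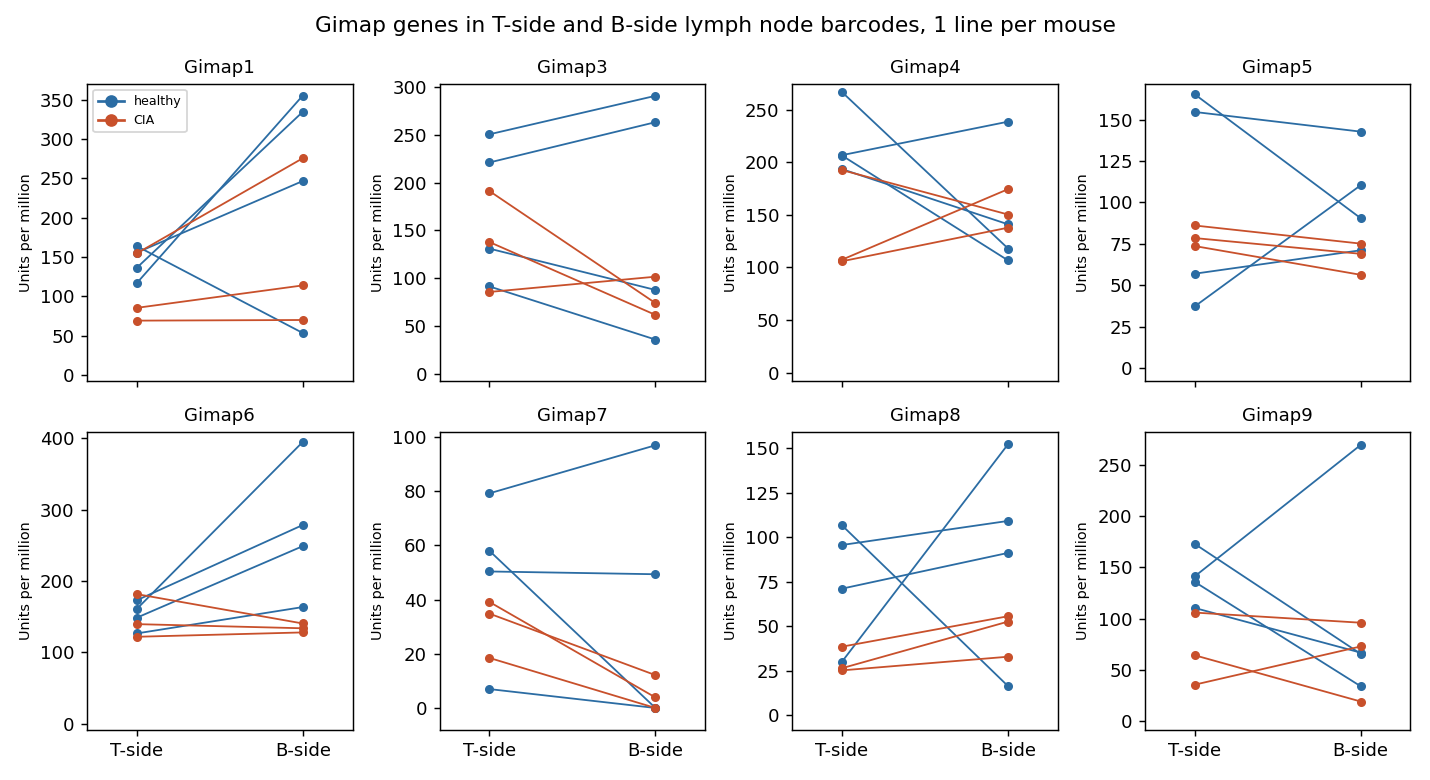
Level of each Gimap gene (y axis, UPM) in T-side and B-side lymph node barcodes (x axis), with 1 line per mouse, healthy in blue and CIA in orange. Gimap7 falls from T-side to B-side in 6 of 7 mice, Gimap1 and Gimap8 rise in 6 of 7, and the lines of the other members cross.

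In the same fit, 8 of the 14 T cell receptor genes were higher on the T-side and 0 were lower, with a list median of 1.25; some of them were among the markers that made the split. Of the 18 quiescence and recirculation genes 4 were higher on the T-side, among them Tcf7 (1.73 ± 0.33, limma adjusted p = 4.2e-05) and Il7r (1.82 ± 0.36, adjusted p = 8.73e-05), the interleukin 7 receptor, and 1 was lower, Ccr7 (-0.91 ± 0.29, adjusted p = 0.0305), with a list median of 0.01. Of 10 other GTPases and GTPase partners of lymphocytes listed for contrast, 7 were tested and 1 was higher on the T-side, the guanylate-binding protein Gbp3 (1.63 ± 0.53, adjusted p = 0.0344).

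In lymph node, the comparison of CIA with healthy mice asked whether arthritic mice held less or more Gimap signal in this organ. The summed levels were 879 (H3), 847 (H4), 1254 (H6) and 1188 (H7) UPM in healthy and 653.5 (S1), 653 (S2) and 817 (S7) UPM in CIA mice. The CIA mice were all below the healthy mice in this sum, but single libraries overlapped. The library of S7 with the suffix 2CIA was at 876 UPM, and that of healthy H4 with the suffix CIA at 817 UPM. All 8 fitted log2 differences were below 0, from -0.98 to -0.08 (median -0.45), against a median of 0.09 and 40.5% of differences below 0 over all genes tested. Per unit of T cell marker, which was also lower in some CIA mice (1238 to 1589 UPM against 1245 to 2346 UPM), the sums of the states overlapped, at 0.514 to 0.527 in CIA and 0.462 to 0.954 in healthy mice.

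Gimap9 had the largest of these differences. Healthy levels were 120 (H3), 162 (H4), 167.5 (H6) and 106 (H7) UPM, with a mean of 139 ± 30.4 UPM (SD, n = 4), and CIA levels were 63.0 (S1), 41.7 (S2) and 90.1 (S7) UPM, with a mean of 64.9 ± 24.3 UPM (SD, n = 3). The states did not overlap for Gimap9, which was so for 0 other members, and of all genes tested 2.57% had every CIA mouse below every healthy mouse. Its log2 difference was -0.98 ± 0.35 (SE), with an unadjusted p of 0.0122 and a limma adjusted p of 0.962. Among libraries with the suffix 2CIA alone it was -0.77, and with each distinct barcode profile taken once -0.72.

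Gimap4 levels were 216 (H3), 196 (H4), 225 (H6) and 172 (H7) UPM in healthy and 114 (S1), 113 (S2) and 185 (S7) UPM in CIA mice, so that S7 lay within the healthy range. Gimap8 was at 69.0, 46.9, 107 and 109 UPM in H3, H4, H6 and H7 and at 49.6, 55.0 and 43.2 UPM in S1, S2 and S7. Here H4 lay among the CIA mice. Gimap5, needed for the survival of peripheral T cells, ranged over 51.8 to 126 UPM in healthy and 64.4 to 85.1 UPM in CIA mice, a log2 difference of -0.08 ± 0.37 with a 95% interval from -0.87 to 0.72.

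By limma, 0 of 8 members were called in lymph node, against 1 of 5060 genes or 0.0198%, and 1 member (Gimap9) and 215 genes (4.25%) had an unadjusted p under 0.05. Among 2CIA libraries alone the median difference of the members was -0.07. There Gimap5 was at 0.74, Gimap6 at 0.05 and Gimap8 at 0.04, and the other members fitted were below 0. In the listed pathways 0 of 18 quiescence genes (median -0.18), 0 of 14 T cell receptor genes (median -0.36) and 0 of 8 tested GTPases (median -0.20) were called. Klf2, a transcription factor of resting lymphocytes, had the smallest p-value of the quiescence list (-1.20 ± 0.35, limma adjusted p = 0.962).

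In blood the fitted differences were larger and less certain. Gimap4 levels were 120 (H3), 48.2 (H4), 236 (H6) and 221 (H7) UPM in healthy mice, with a mean of 156 ± 88.8 UPM (SD, n = 4), and 14.0 UPM in S2, while the gene was listed at 0 in S6 and S7 (CIA mean 4.67 ± 8.09 UPM, n = 3). The CIA mice were all below the healthy mice for Gimap4 and for 0 other members, and of all genes tested 5.74% had this pattern. Its log2 difference was -3.45 ± 0.95 (SE; 95% interval -5.34 to -1.56), with an unadjusted p of 0.000548 and a limma adjusted p of 0.122. With the erythroid markers left out of the total, a scale added after seeing the data, these became 152, 99.6, 245 and 272 UPM in healthy mice and 22.6 UPM in S2.

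The 2 libraries in which Gimap4 was listed at 0 were small and had lost rare genes. The blood library of S6 held 62 barcodes and that of S7 97, and 95% of their listed genes were at or above 80.5 and 41.2 UPM, so a lower level of Gimap4 could have been listed at 0. The H3 library held 27 barcodes, and its Gimap4 value rested on 26 units. All 3 CIA blood libraries carried the suffix 2CIA. Among 2CIA libraries alone Gimap4 was at 120 UPM in H3 and 63.6 in H4 against 14.0 UPM, 0 and 0, a log2 difference of -2.61 with an unadjusted p of 0.132 and a limma adjusted p of 0.931.

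The remaining members overlapped between the states in blood. Gimap8 was at 0, 24.2, 52.4 and 102 UPM in H3, H4, H6 and H7 and listed at 0 in all 3 CIA mice. Gimap3 was at 55.2, 73.4, 185 and 229 UPM in those healthy mice and at 39.4 UPM in S2, 0 in S6 and 69.2 in S7. H3 thus lay with or near the CIA mice for both genes. Gimap1 was at 0, 70.5, 205 and 252 UPM in H3, H4, H6 and H7 and at 7.55, 188 and 110 UPM in S2, S6 and S7, and Gimap5 was highest in S6, at 144 UPM. Gimap6, found in every blood mouse, was at 55.2, 126, 196 and 294.5 UPM in healthy and 31.3, 132 and 95.5 UPM in CIA mice.

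**Figure D4:**
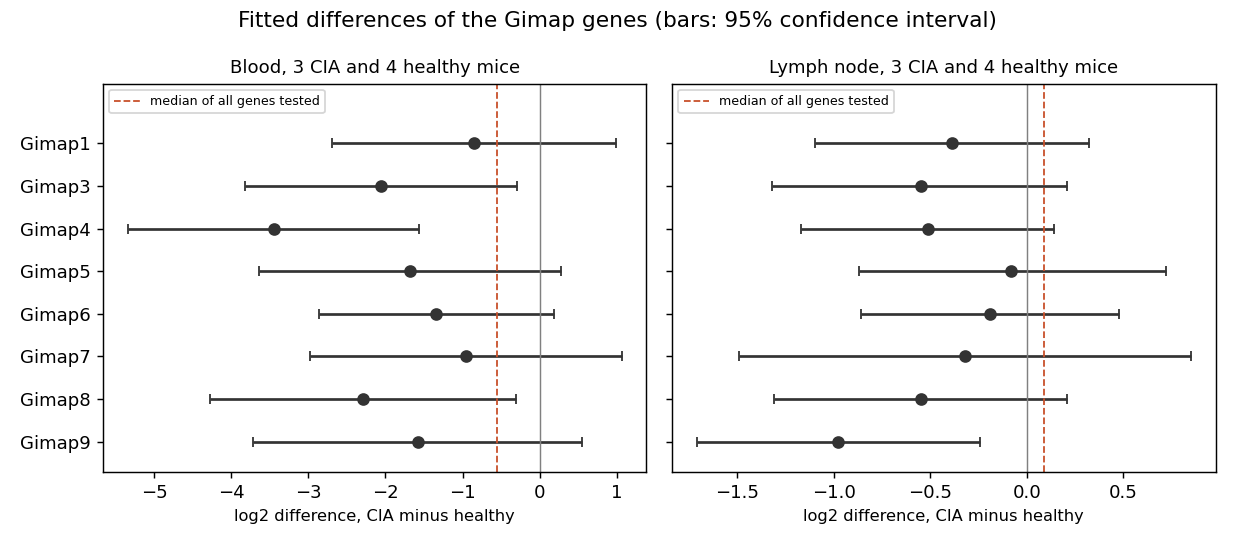
Fitted log2 difference between CIA and healthy mice (x axis) for each Gimap gene (y axis) in blood (left) and lymph node (right), with 95% confidence intervals from limma and the median of all genes tested as a dashed line (-0.55 in blood, 0.09 in lymph node). All 16 points lie to the left of their dashed line, and the intervals of Gimap3, Gimap4 and Gimap8 in blood and Gimap9 in lymph node do not cross 0. In blood, Gimap4, Gimap7, Gimap8 and Gimap9 met the minimum level through the healthy mice alone. Their places and intervals were thus in part fixed by that minimum and are a description.

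All 8 blood differences were below 0, from -3.45 to -0.85 (median -1.63), but so were 73.0% of those of all genes tested, whose median was -0.55. By limma 0 of 8 members were called, against 6 of 4703 genes or 0.128%, and 3 members (Gimap3, Gimap4 and Gimap8) and 461 genes (9.80%) had an unadjusted p under 0.05. Gimap4, Gimap7, Gimap8 and Gimap9 averaged 0 to 10.4 UPM in CIA blood and met the minimum of 25 UPM through the healthy mice alone, so a lower level in CIA was in part fixed by that minimum, and these counts and the median are a description. Among 2CIA libraries alone the median of the members turned to 0.18 beside 0.36 for all genes. That fit held 6 members, as Gimap7 and Gimap8 fell under the minimum level, and in it Gimap1 was at 2.72 and Gimap3 at 0.73. The part of the suffix in the differences was not tested beyond these values.

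Cell type marker sums also differed between the blood mice, and the T cell sum did not follow the Gimap sum in every mouse. H3 had the highest T cell marker sum (828 UPM) beside a Gimap sum of 290 UPM, and S6 had 0 beside 464 UPM. The 8 T cell markers summed to 180 to 828 UPM in the healthy mice and to 173 UPM, 0 and 0 in S2, S6 and S7. The 8 B cell markers summed to 883 to 2958 UPM in healthy and 424 to 1735 UPM in CIA mice, and all 8 were above 0 in both states. The 7 neutrophil markers summed to 1655 to 5412 UPM in healthy mice and 5235 to 73376 UPM in CIA mice, and all 7 were above 0 in both states. The 6 monocyte markers, all above 0 in both states, summed to 419 to 3067 UPM in healthy and 3480.5 to 12319 UPM in CIA mice, without overlap, whereas the B cell and neutrophil sums overlapped. The part of these markers in the Gimap differences was not tested. In the listed pathways 0 of 18 quiescence genes (median -1.10), 0 of 10 tested T cell receptor genes (median -2.23) and 0 of 7 tested GTPases (median -0.31) were called in blood. Among them Klf2 (-1.75 ± 0.64, limma adjusted p = 0.40), Cd3d, a chain of the T cell receptor complex (-2.91 ± 0.94, limma adjusted p = 0.316), and Rhoh, a lymphocyte GTPase of another family (-2.57 ± 1.03, adjusted p = 0.434), had the smallest p-values of their lists.

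The 2 organs were then compared. In the 4 healthy mice, limma called 0 of 8 members between lymph node and blood, against 2 of 4990 genes or 0.0401%, and 0 members but 742 genes (14.9%) had an unadjusted p under 0.05. Gimap9 had the largest difference, 1.32 ± 0.64 higher in lymph node on the log2 scale (95% interval -0.05 to 2.70, limma adjusted p = 0.347). Its levels in lymph node were 106 to 167.5 UPM and in blood 33.6, 71.2 and 93.8 UPM in H4, H6 and H7. It was listed at 0 in the blood of H3, a library of 27 barcodes. Among 2CIA libraries alone, from H3 and H4, the median of the 7 members fitted was 2.36 and Gimap1 was at 3.90, whereas without H3 the median over the members was -0.09. In those 2CIA libraries Gimap1 and Gimap8 were listed at 0 in blood and met the minimum through lymph node alone. A difference above 0 was thus fixed for them, and this median is a description. In the fit of all libraries the members other than Gimap9 differed by -0.09 to 0.78. The interval for Gimap6, from -1.24 to 1.05, allowed a 2-fold difference in either direction. With the mouse as a replicate block, since the same mice gave both organs, 0 members and 9 genes were called.

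Whether CIA moved Gimap levels differently in the 2 organs was tested as an interaction of organ and state. All 8 estimates were above 0, from 0.20 to 2.93 (median 1.2), where all genes had a median of 0.53 and 28.7% of estimates below 0. Since Gimap4, Gimap7, Gimap8 and Gimap9 met the minimum level through groups other than CIA blood, an estimate above 0 was in part fixed for them, and the count and median are a description. By limma 0 of 8 members and 0 of 4858 genes (0.0%) were called, and 1 member and 409 genes (8.42%) had an unadjusted p under 0.05. That member was Gimap4, at 2.93 ± 0.78 (limma adjusted p = 0.438), where the CIA difference was -3.45 in blood and -0.51 in lymph node in the fits of each organ. Among 2CIA libraries alone the median turned to -0.08 over the 6 members fitted, with Gimap1 at -3.08, Gimap3 at -0.82 and Gimap9 at -0.21, while Gimap4 was at 2.35. With the mouse as a replicate block 0 members and 1 gene were called.

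The other organs gave 1 mouse per state, and their values have no replicate check. Except in joint, the CIA library also carried another title suffix than the healthy one, so that state, mouse and suffix cannot be told apart. Ratios are given on the log2(UPM + 10) scale for members that averaged 25 UPM or more. In spleen, 2 of 8 members were past 2-fold, Gimap7 at 74.9 UPM in H6 and 19.6 UPM in S1 (-1.52) and Gimap5 at 84.4 and 30.9 UPM (-1.21), against 36.9% of all such genes. Gimap5 was not past 2-fold with trimmed-mean scaling (-0.91) or with each distinct profile taken once (-0.86), and Gimap8 was higher in CIA by 1.01 with the latter. The median of the 8 was -0.17, beside -0.22 for all genes, and Gimap4 was at 90.4 and 84.6 UPM. In the same libraries neutrophil markers were at 4372 and 97349 UPM and B cell markers at 2221 and 1469 UPM. Erythroid markers were at 519 and 91276 UPM and NK cell markers at 424.5 and 107 UPM, and the part of these markers was not tested.

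In muscle, all 8 members were above 0 in the healthy library, from 18.3 UPM (Gimap8) to 90.3 UPM (Gimap9). In the CIA library of 54 barcodes, Gimap1 at 28.4 UPM and Gimap6 at 26.0 UPM were above 0. Of the 5 members that reached the minimum mean, 4 were past 2-fold, where 55.6% of all genes were. For 3 of these, Gimap4, Gimap5 and Gimap9, the CIA level was 0, so that meeting the minimum already fixed a fall past 2-fold, and nothing is read from the count. The libraries also differed in their makeup. The healthy one held 523 UPM of T cell, 930 UPM of B cell and 104046 UPM of neutrophil markers, against 0, 78.0 and 18320 UPM in the CIA library. Its skeletal muscle markers summed to 60.6 UPM, with Ckm, Myh4 and Tnnt3 at 0, against 3713 UPM, and its fibroblast markers to 496 against 11993 UPM. The healthy library thus held little signal of the labelled tissue, and the part of these markers was not tested.

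In thymus, 1 of 3 members with the minimum mean was past 2-fold, Gimap9 at 72.9 UPM in H6 and 22.5 UPM in S1 (-1.35), against 17.0% of all genes. Gimap5, under the minimum, went the other way, at 11.3 and 37.4 UPM. Neutrophil markers were at 164.5 UPM in the thymus of H6 and 1590 UPM in that of S1, and thymocyte markers at 1880 and 1284 UPM. The part of these markers was not tested. In joint 0 of 1 member was past 2-fold, against 28.7% of all genes: Gimap6 was at 38.1 UPM in H3 and 28.3 UPM in S1. In lung Gimap6 was at 62.8 UPM in H6 and listed at 0 in S1, a fall that meeting the minimum through the healthy library fixed (47.1% of all genes were past 2-fold), beside T cell markers at 105 UPM and 0 and B cell markers at 364 UPM and 0. No member reached the minimum in skin, where 25.1% of genes were past 2-fold; Gimap6 at 13.1 UPM in H6 and Gimap9 at 11.98 UPM in S1 were the members above 0.

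Within libraries the relation to markers varied. Over distinct profiles, Spearman's rho of the summed Gimap level with the T cell marker sum was 0.468 and 0.350 in the CIA and healthy spleen, 0.245 and 0.148 in the CIA and healthy thymus, and -0.126 to 0.341 over the 9 lymph node libraries. With the B cell marker sum it was 0.692 in the CIA and 0.053 in the healthy spleen, -0.082 and -0.203 in the CIA and healthy thymus, and -0.168 to 0.484 over the lymph node libraries. Profiles of a library share neighbours, so rho is given as a description. A member was above 0 in 96.7% to 100% of the lymph node profiles, and in 87.2% and 64.9% of those of the healthy and CIA thymus.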

How the data were processed

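Seq-Well libraries of mouse organs were analysed from 1 deposited table of gene by barcode values. By the study's methods the authors aligned reads with STAR to GRCm38 and counted unique molecular identifiers with the Drop-seq tools. Per the labels, bcl2fastq, Picard and STAR were used. The authors then smoothed each pilot library over nearest neighbours (k = 12). The deposited values are whole-number sums over neighbours and not scaled, so they were treated as a signal and not as counts; of 8282 columns, 4590 were distinct. No count model was used. Of 23013 rows, 21404 matched a symbol in RefSeq GRCm38.p6, and 0 per-sample columns were left unused.

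Units were summed per mouse and organ and scaled by a trimmed mean of log ratios (30% of ratios and 5% of levels at each end, numpy 2.4.6). Genes that averaged 25 UPM or more were fitted as log2(UPM + 10) with limma 3.58.1 in R 4.3.3, moderated variances and a trend. P-values are two-sided, and a Benjamini-Hochberg adjusted p under 0.05 over all genes tested is a call. Levels in the text are scaled by the total alone, log2 differences come from the fit, and they understate changes of low genes. T-side and B-side needed 100 UPM of markers, 10 barcodes per side and mouse, and a ratio of 2. The fit was tested on simulated data. Members, gene lists and tests were chosen with earlier results of these data known. Named genes are the 8 members, the 5 most and 3 least alike genes, and up to 2 genes per list, direction and comparison with the smallest p; others are said to be chosen after their values were seen. Some of the genes that this rule picks are not reported here. Replicates are mice, and healthy and CIA mice that share a number are different animals. Depth was 217494 to 7886790 units per library; as units are not molecules, no counting error was derived. Alternatives were other scalings, pseudocount, filter, trend, distinct profiles, single libraries, suffix 2CIA alone, a block and leaving out each mouse; blood libraries of at least 90 barcodes were an alternative added after seeing the data.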

Additional observations from a re-analysis of the deposited data

Results flagged for a closer look

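Of 16 groups of 4 healthy mice examined (8 members in blood and in lymph node), 1 held a sample far from the others by Dixon's criterion at 95%, where chance gives about 1 in 20 groups. Gimap5 in healthy blood was at 124 UPM in H7, against 51.5 to 59.8 UPM in the other 3 healthy mice, a gap of 0.886 of the range. No interaction of organ and state passed the test for any of the 8 members by limma.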

How the results depend on the processing

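No member was called in any of the 5 comparisons under any of the 14 to 19 settings of each (limma), and the smallest adjusted p of a member in any of them was 0.0639, for Gimap4 in the interaction without S2, and 0.0651, for Gimap4 in blood without the filter on low values. The Gimap4 difference in blood was -5.72 to -2.61 over 16 alternatives, below 0 in each, with adjusted p from 0.0651 to 0.949, and -3.29 with blood libraries of at least 90 barcodes, an alternative chosen after seeing the data that leaves out H3 and S6. The Gimap9 difference in lymph node was -1.24 to -0.72 over 15. With 2CIA libraries alone, the median member difference was 0.18 in blood (-1.63 in all libraries), -0.07 in lymph node (-0.45), 2.36 between healthy lymph node and blood (0.31) and -0.08 in the interaction (1.2), over the 6 or 7 members that those fits held; Gimap3 was at 0.73, Gimap5 at 0.33 and Gimap6 at 0.02 in blood, Gimap8 at 0.04 in lymph node, Gimap3 at -0.82 in the interaction and Gimap4 at -0.02 between T-side and B-side. Fewer samples entered these fits, and between healthy lymph node and blood Gimap1 and Gimap8 met the minimum through lymph node alone. The cause was not tested otherwise. A pseudocount of 1 gave medians of 2.15 in the interaction, -2.90 in blood and 0.65 between healthy lymph node and blood, and scaling by the total 0.60 between healthy lymph node and blood and 0.11 between T-side and B-side (0.24), where scaling by the median of ratios gave 0.14. Leaving out 1 mouse at a time gave medians of -2.06 to -1.25 in blood, -0.62 to -0.30 in lymph node, -0.09 to 0.54 between healthy lymph node and blood (-0.09 without H3), 0.78 to 1.58 in the interaction and 0.11 to 0.39 between T-side and B-side (0.11 without H7, 0.39 without S2). Of 618 recomputed member differences, 48 had the other sign, 6 of them where the reported difference was at least its standard error (those named above). Of 152 recomputed ratios of the organs with 1 mouse per state, 8 had the other sign, where the reported ratio was at most 0.33 in size. With the mouse as a replicate block, 0 members were called, with 9 genes in all between healthy lymph node and blood and 1 in the interaction; without the replicate block, 163 genes and 0 members differed between T-side and B-side. Counts over all genes ranged from 0 to 21 in blood (6), 0 to 7 in lymph node (1), 0 to 75 between healthy organs (2), 0 to 7 in the interaction (0) and 19 to 434 between T-side and B-side (416). Scaling by the total moved the median of all genes in blood from -0.55 to -0.10. Small blood libraries (27 to 97 barcodes in H3, S6 and S7) and missing rare genes limit what levels near 0 can show.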
